A study of Mus musculus with 6 samples.

Results

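The BCL2 family, the caspases and the inhibitors of apoptosis were followed as a set of 45 genes in whole mouse embryonic submandibular glands (eSMGs), with and without the CXCR4 antagonist AMD3100. The set took every gene symbol of the count tables that begins with Bcl2, every numbered caspase, and 22 further symbols of the death machinery chosen by name, among them Bax, Apaf1, Xiap, Fas and Trp53. These were 45 of the 23260 gene lines of the tables. Of the 45, 35 had enough counts for edgeR's test and were tested among 13610 genes, and 10 were left out by its filter (Bcl2a1a, Bcl2a1c, Bcl2a1d, Bcl2l10, Bcl2l15, Pmaip1, Casp1, Casp4, Casp14 and Fas).

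In the intrinsic pathway of apoptosis, BH3-only proteins sense damage or loss of growth signals and relieve BAX and BAK1 from the anti-apoptotic BCL2 proteins. Pores in the mitochondrial outer membrane then release cytochrome c (encoded by Cycs), which joins APAF1 in the apoptosome, activates caspase-9 and through it further caspases. In the extrinsic pathway, death receptors such as FAS recruit FADD and caspase-8, and inhibitor of apoptosis proteins restrain caspases in both pathways. In developing salivary glands, cell death is known to accompany the opening of the lumens of ducts and end buds.

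Glands were taken from ICR mouse embryos at E14 (embryonic day 14), and the RNA of up to 10 glands per tube was collected after 6 h of culture. The control group and the group cultured with 50 µM AMD3100, which blocks the CXCL12 receptor CXCR4, held 3 tubes each. Nothing in the labels says that the tubes came from separate litters or cultures, so p-values measure the spread between these tubes, which may be technical. The study's statistics section speaks of independent experiments in general terms, without naming the sequencing. Each library was made from the 3′ ends of transcripts in the whole gland, which holds epithelium, mesenchyme and other cells, and the transcript level of a caspase gene says nothing about cleavage of its protein. The reads counted on genes came to 11532946, 13127539 and 10869528 in control replicates 1, 2 and 3, and to 14393031, 11358828 and 9051595 in AMD3100 replicates 1, 2 and 3. Of these totals the ribosomal RNA precursor Rn45s took 32.4, 27.5 and 20.2% in control and 16.2, 32.5 and 22.7% in AMD3100 libraries.

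Levels are given as TMM-normalized CPM (counts scaled to the total of the library, with a further factor per library), always in the order of replicates 1, 2 and 3. The counts were not adjusted for differences between genes, so a higher level of one gene than of another was not read as a result. The floor was taken as 3 counts, which came to 0.173 to 0.368 CPM depending on the library and covers counting error only. Fold changes are on the log2 scale, positive where AMD3100-treated eSMGs were higher, and come from edgeR's quasi-likelihood test. A gene was called when its unadjusted p-value was under 0.05 and its fold change over 1.5, the thresholds in the study's Results text. A figure caption of the study gives a fold of at least 2 for the same genes.

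None of the apoptosis genes passed edgeR's test in the fit on group alone, with 0 of the 35 called, beside 1.68% of all 13610 genes. None was called up (0.397% of all genes) and none down (1.28%). At an unadjusted p under 0.05 there were 0 of the 35 by edgeR and 0 of 43 by DESeq2, a second count model, which called 2.62% of its genes. Under 5 other settings, Apaf1 was called, and under 1 of these Bcl2l14 as well. After Benjamini-Hochberg adjustment, 0 of the 35 and 0% of all genes had a p-value under 0.05. The fold change was positive for 15 and negative for 20 of the 35 genes, and its median was -0.04 beside 0.02 over all genes tested. Leaving out 1 library at a time gave medians from -0.23 to 0.04. The median absolute log2 fold change was 0.24 in the apoptosis genes and 0.28 in all genes, while the median standard error was 0.46 and 0.50. In 30 of the 35 genes the fold change was smaller than its own standard error.

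**Figure D1:**
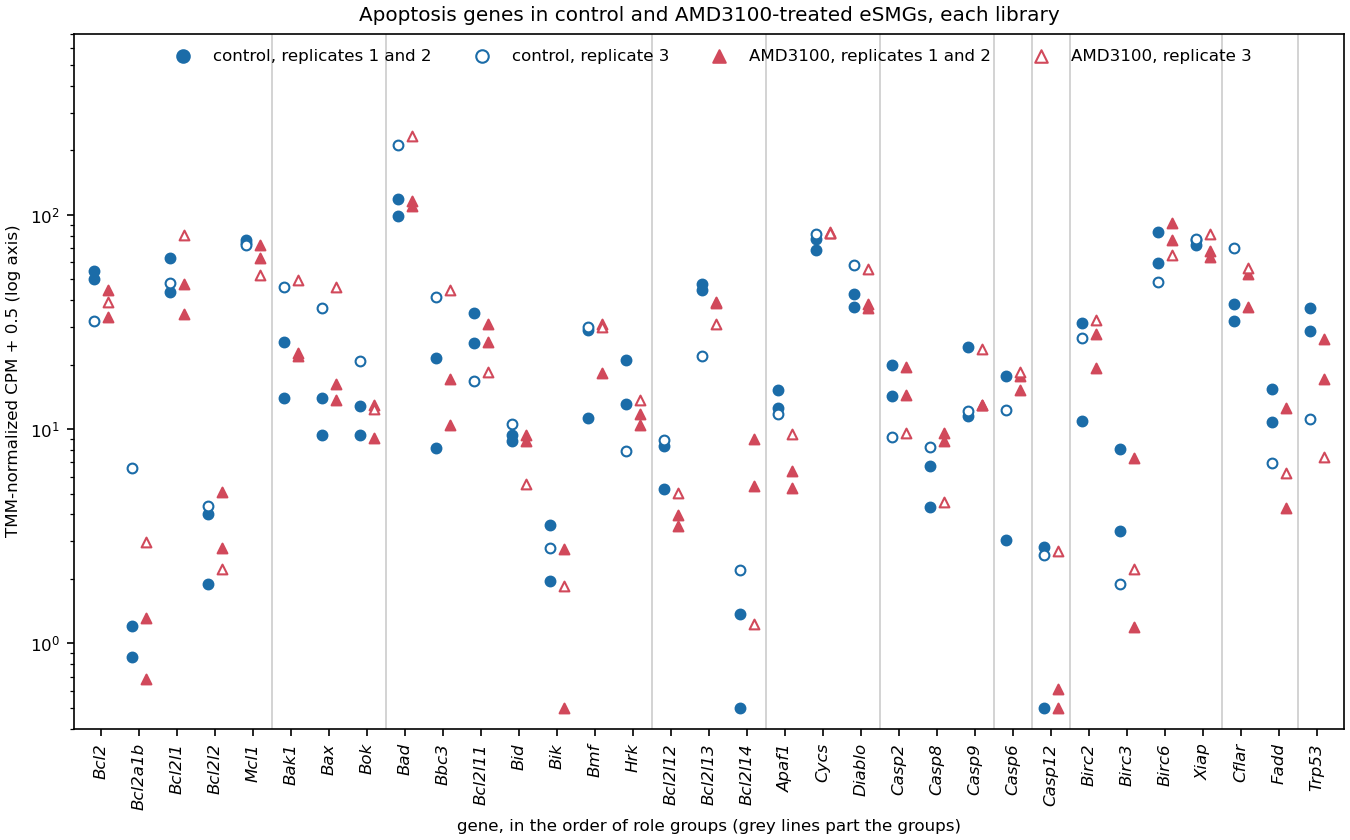
Level of 33 tested apoptosis genes in every library, as TMM-normalized CPM with 0.5 added, on a log axis. Circles are control and triangles AMD3100-treated eSMGs, open symbols are replicate 3, and grey lines part the role groups. In most genes the triangles lie among the circles, and in Bax, Bak1, Bad and Bbc3 the open symbols of both groups lie above the filled ones.

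The size of a change that these libraries could have missed differed between genes. For 11 genes the 95% interval of the fold change lay within 2-fold in either direction, among them Bcl2, Bcl2l1, Mcl1, Bcl2l11, Bcl2l13, Cycs, Diablo, Xiap, Birc6 and Cflar. For the other 24 genes the interval reached past 2-fold in at least one direction, so this fit, on group alone, did not exclude such a change. Its standard errors ran from 0.26 to 1.98, and the interval of each of the 35 genes included no change. These limits depend on the fit. With the replicate numbers as a block, the standard error was smaller for Bax (0.26 beside 0.64) and Bad (0.14 beside 0.42). It was larger for Bcl2l14 (1.95 beside 1.43) and Bik (1.75 beside 1.44). Intervals with the block are not given. In 3 of the 35 genes (8.57%) the groups did not overlap, beside 7.44% of all genes. Cycs was the 1 gene with its AMD3100-treated libraries all above control, beside 3.28% of all genes. Apaf1 and Bcl2l12 were the 2 genes with those libraries all below control, beside 4.17%.

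**Figure D2:**
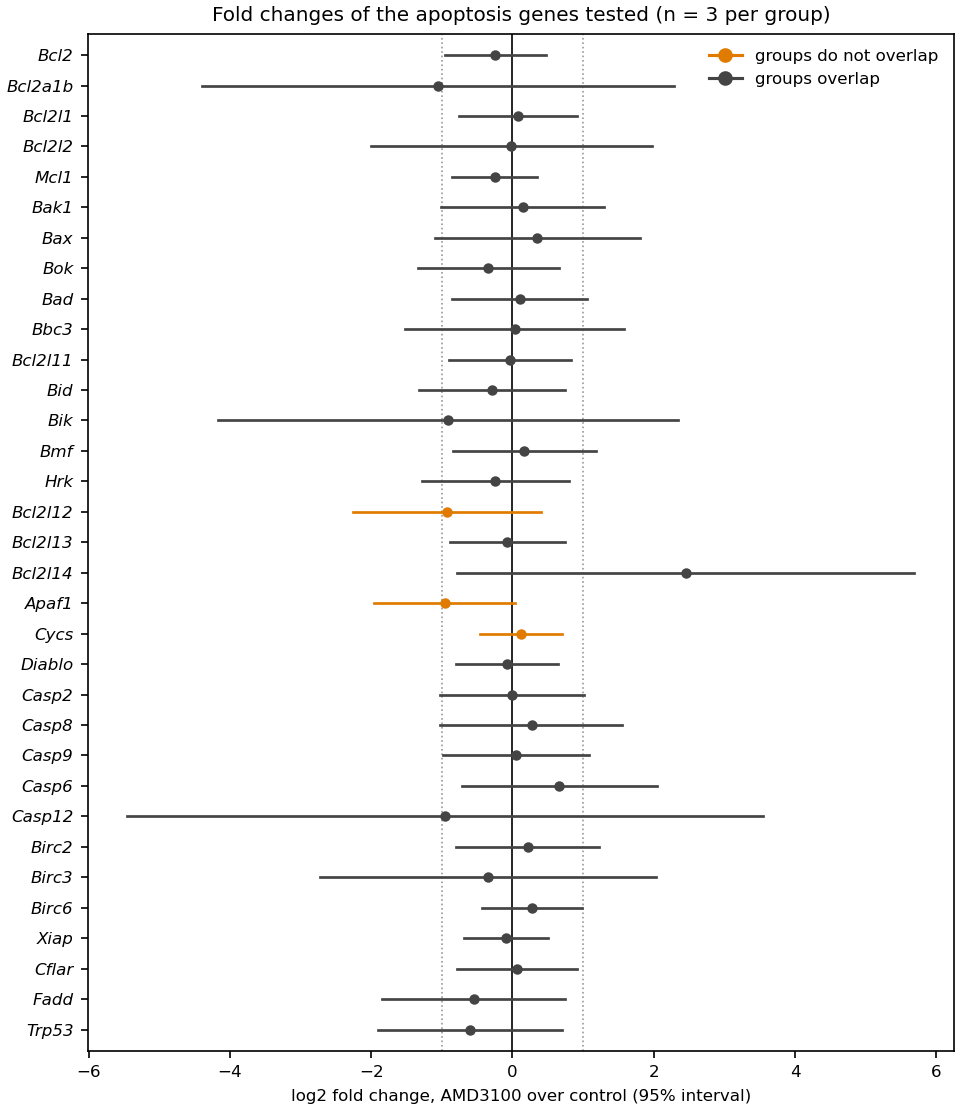
Log2 fold change (AMD3100-treated over control, x axis) of 33 tested apoptosis genes with 95% intervals from edgeR's fit on group alone, n = 3 per group. Dotted lines mark a 2-fold change, and orange marks Apaf1, Bcl2l12 and Cycs, whose groups did not overlap. The interval of every gene drawn crosses 0, that of Apaf1 ending just above it at 0.04.

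Apaf1, which encodes the scaffold of the apoptosome, was the gene of the set with the lowest p-value. It lies at chr10:90989311-91082743 of GRCm38.p6 (RefSeq). In control eSMGs Apaf1 stood at 12.1, 14.7 and 11.3 CPM, from 138, 202 and 113 counts. In AMD3100-treated eSMGs it stood at 4.78, 5.90 and 8.96 CPM, from 83, 64 and 73 counts. All 3 treated libraries were thus below all 3 controls, with treated replicate 3 nearest to them. The means were 12.7 ± 1.80 and 6.55 ± 2.17 CPM (SD, n = 3), a log2 fold change of -0.96 (SE 0.44, 95% interval -1.96 to 0.04) that missed the threshold (edgeR p = 0.0585, adjusted p = 1.0, exact permutation p = 0.1). The exact value is the smallest that 3 against 3 libraries allow and follows from the lack of overlap, so it adds nothing to it. When the replicate numbers entered the fit as a block, the log2 fold change of Apaf1 was -1.0 (SE 0.43, adjusted p = 0.732 by edgeR), and Apaf1 was then called on its unadjusted p-value, as 1 of the 35 genes beside 4.39% of all genes. Without AMD3100 replicate 3 it was called too, at -1.26, beside 3.16% of all genes. Apaf1 was also the 1 gene called among 35 by limma-voom after quantile normalization, beside 2.29% of all genes, and among 43 by the study's procedure of quantile normalization and an equal-variance test, beside 2.34%. In RNA of whole glands, fewer cells of a type and less RNA per cell cannot be told apart.

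Cycs, at chr6:50562563-50566569, encodes cytochrome c, the ligand of APAF1. Its levels were 68.0, 76.7 and 81.1 CPM in control and 81.6, 82.5 and 81.9 CPM in AMD3100-treated eSMGs. The groups did not overlap by a margin that was narrow beside the control spread. The means were 75.3 ± 6.64 and 82.0 ± 0.470 CPM, and the log2 fold change was 0.12 (SE 0.26, adjusted p = 1.0 by edgeR). Diablo, whose protein is released from mitochondria and binds inhibitor of apoptosis proteins, stood at 36.8, 42.4 and 57.7 CPM in control and at 37.9, 36.3 and 55.6 CPM in treated eSMGs. Its groups overlapped, with replicate 3 the highest library of each.

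The promoters of the 3 genes whose groups did not overlap are shown to put sequence beside the genes described most closely. As their number was near the background share, they are not taken as a set with shared control. Each is the 250 bases before a transcription start listed by RefSeq (GRCm38.p6), 5′ to 3′ on the minus strand, where these genes lie. Capitals mark the GC box GGGCGG, the letters bound by SP1, in Apaf1 and the CCAAT box CCAAT in Cycs, and both motifs were searched on both strands.
Apaf1, chr10:91082744-91082993: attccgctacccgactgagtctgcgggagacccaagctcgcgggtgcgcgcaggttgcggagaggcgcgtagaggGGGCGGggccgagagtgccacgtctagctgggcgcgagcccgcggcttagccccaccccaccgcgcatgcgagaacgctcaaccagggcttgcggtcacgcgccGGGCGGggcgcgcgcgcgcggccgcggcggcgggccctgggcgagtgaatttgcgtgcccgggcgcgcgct
Bcl2l12, chr7:44997580-44997829: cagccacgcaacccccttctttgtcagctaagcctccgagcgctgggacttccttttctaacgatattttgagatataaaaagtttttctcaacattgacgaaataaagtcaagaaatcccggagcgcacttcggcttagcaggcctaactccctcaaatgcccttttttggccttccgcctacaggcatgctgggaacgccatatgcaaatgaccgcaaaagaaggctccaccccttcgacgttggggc
Cycs, chr6:50566570-50566819: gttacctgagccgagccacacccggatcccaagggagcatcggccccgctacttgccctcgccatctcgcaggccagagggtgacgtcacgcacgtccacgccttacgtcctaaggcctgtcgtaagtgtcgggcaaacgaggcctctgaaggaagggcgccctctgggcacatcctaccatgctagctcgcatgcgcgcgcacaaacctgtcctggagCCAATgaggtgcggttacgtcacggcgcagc
Apaf1 held 2 GC boxes, starting 175 and 71 bases before the start site, Cycs held 1 CCAAT box starting 31 bases before it, and Bcl2l12 held neither. The GC box was found in 32.7% and the CCAAT box in 33.8% of all 32851 promoters listed. Of the 45 apoptosis genes 40 were matched to 53 promoters, of which 29 held a GC box and 14 a CCAAT box. A match is a description of letters and not a site in use, and no match says only that these letters are not in this window.

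Among the BCL2-like genes without an agreed role in the core pathway, Bcl2l12 had its treated libraries below control and Bcl2l14 the widest scatter. Bcl2l12 stood at 4.73, 7.87 and 8.38 CPM in control and at 3.46, 3.04 and 4.54 CPM in treated eSMGs. The highest treated library was just under the lowest control. The means were 6.99 ± 1.98 and 3.68 ± 0.776 CPM, a log2 fold change of -0.93 (SE 0.58, 95% interval -2.25 to 0.40) that did not pass the test (adjusted p = 1.0 by edgeR), nor with the block. In GRCm38.p6 another gene, Gm15545, overlaps the last 1000 bases of Bcl2l12, and since the strand setting of the counting was not stated, reads of the pair cannot be told apart. Bcl2l14 was singled out after its values were seen. It had 0, 12 and 17 counts in control and 85, 92 and 6 counts in treated eSMGs, so that treated replicate 3 lay between the controls. Its log2 fold change was 2.45 (SE 1.43) and not called. With replicates 1 and 2 only, it was 3.87 and called, as 1 of 2 apoptosis genes beside 4.39% of all genes, the other being Apaf1. The value of Bcl2l14 was 1.71 without AMD3100 replicate 2 and 3.37 without control replicate 3, called in neither. Bcl2l13, whose protein sits on mitochondria, stood at 43.9, 47.1 and 21.4 CPM and at 38.2, 38.6 and 30.3 CPM, with overlapping groups. The fourth gene, Bcl2l15, had at most 17 counts in a library and was not tested.

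**Figure D3:**
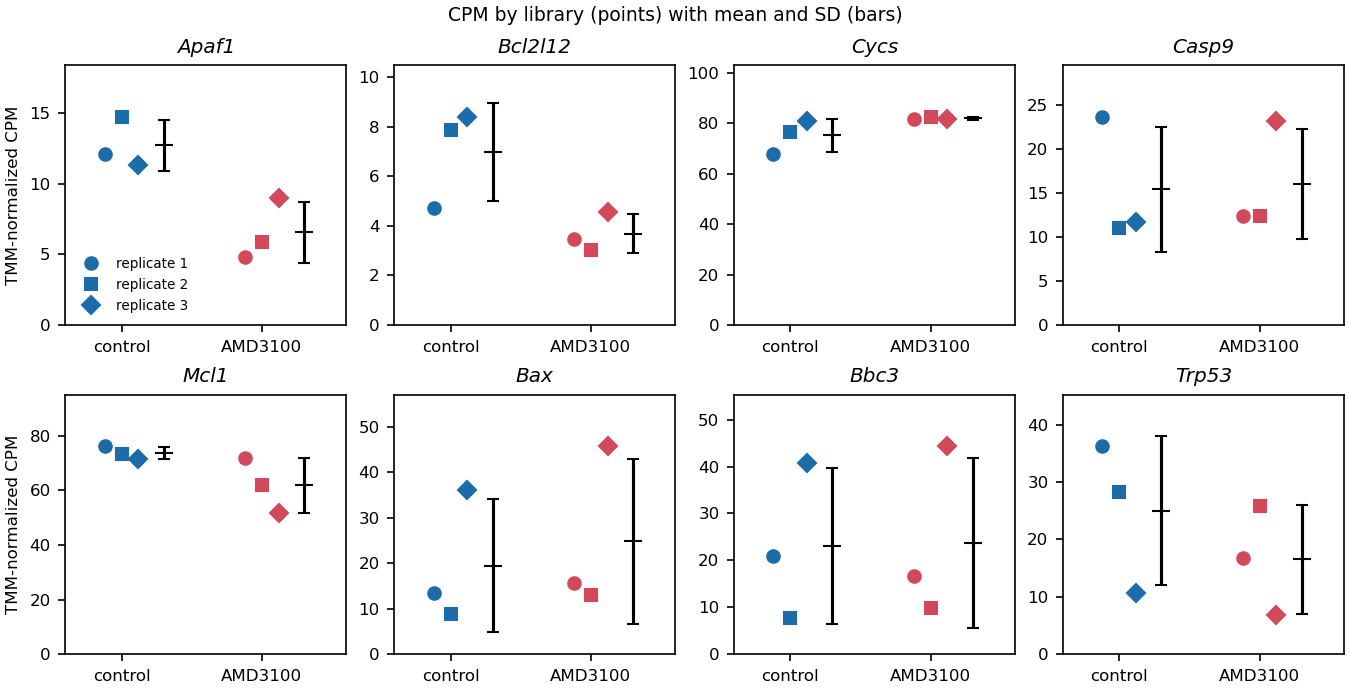
TMM-normalized CPM of 8 apoptosis genes in each library, control in blue and AMD3100-treated in red, with the mean and SD of 3 libraries as bars. Apaf1, Bcl2l12 and Cycs are the genes without overlap between groups, and in Bax, Bbc3 and Trp53 replicate 3 (diamonds) stands apart from replicates 1 and 2 in both groups.

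Of the 9 genes for anti-apoptotic BCL2 proteins, which hold BAX and BAK1 in check, 5 were tested and 0 called, with 1 positive and 4 negative fold changes and a median of -0.24. Mcl1, which encodes a short-lived guardian of mitochondria, stood at 76.1, 73.4 and 71.5 CPM in control and at 71.7, 62.1 and 51.6 CPM in treated eSMGs. The treated library of each replicate number was below the control of the same number, yet treated replicate 1 lay within the control range. The log2 fold change was -0.25 (SE 0.27, 95% interval -0.86 to 0.35, adjusted p = 1.0 by edgeR). Bcl2, the founding member, stood at 54.4, 49.8 and 31.6 CPM and at 32.8, 43.9 and 38.6 CPM. Its groups overlapped, and the log2 fold change was -0.24 (SE 0.31, 95% interval -0.95 to 0.48). Bcl2l1, which encodes BCL-XL, stood at 62.7, 43.1 and 47.5 CPM in control and at 47.2, 33.9 and 80.4 CPM in treated eSMGs. Treated libraries made up both its lowest and its highest value, and the log2 fold change was 0.08 (SE 0.37), which turned to -0.34 without AMD3100 replicate 3 and was 0.33 without AMD3100 replicate 2. Bcl2l2, which encodes BCL-W, ranged from 1.40 to 4.61 CPM with overlapping groups.

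The remaining anti-apoptotic genes had 0 counts or few counts in most libraries. Bcl2l10 and Bcl2a1c had 0 counts in all 6 libraries, which allows up to 3 counts in each. Bcl2a1a, Bcl2a1b and Bcl2a1d are near-identical copies expressed in blood cells. Bcl2a1a had 0, 8 and 16 counts in control and 4, 2 and 1 counts in treated eSMGs, where replicate 3 was the lowest library. Bcl2a1b stood at 0.700, 0.364 and 6.08 CPM in control and at 0.806, 0.184 and 2.46 CPM in treated eSMGs. Both it and Bcl2a1d were highest in replicate 3 of both groups. Summed macrophage markers (10 genes measured, 0 called, none at 0 in all libraries, C1qa with the most reads) were also highest there, at 123, 108 and 288 CPM in control and 123, 143 and 250 CPM in treated eSMGs. By gene, 5 of the 10 were highest in replicate 3 of both groups and 1, Adgre1, was lowest there. Their part in the level of Bcl2a1b was not tested. Reads of these copies are uncertain, since 59% of the 50-base windows in the last 300 bases of the Bcl2a1b transcript, 58.6% for Bcl2a1a and 78.5% for Bcl2a1d, occur at more than 1 place of the mouse genome.

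The pore-forming genes Bax, Bak1 and Bok were tested and not called, with a median log2 fold change of 0.15. Bax, at chr7:45461695-45466903, stood at 13.4, 8.89 and 36.1 CPM in control and at 15.7, 13.1 and 45.7 CPM in treated eSMGs. Each treated library was above the control of its own number, but the difference was small beside the gap of replicate 3 to the others in both groups. The means were 19.5 ± 14.6 and 24.8 ± 18.1 CPM, a log2 fold change of 0.35 (SE 0.64, 95% interval -1.10 to 1.80, adjusted p = 1.0 by edgeR), which turned to -0.45 without AMD3100 replicate 3 and was 1.17 without control replicate 3. Bak1, whose protein forms pores as BAX does, was likewise highest in replicate 3 of both groups, at 25, 13.5 and 45.4 CPM and at 21.5, 22.2 and 49.2 CPM. Bok stood at 12.3, 8.89 and 20.3 CPM and at 8.58, 12.4 and 11.9 CPM, with overlapping groups. Bax is a known target of p53, and its promoter is shown for the p53 decamer in capitals, which starts 201 bases before the start site (RefSeq, GRCm38.p6, minus strand).
Bax, chr7:45466899-45467148: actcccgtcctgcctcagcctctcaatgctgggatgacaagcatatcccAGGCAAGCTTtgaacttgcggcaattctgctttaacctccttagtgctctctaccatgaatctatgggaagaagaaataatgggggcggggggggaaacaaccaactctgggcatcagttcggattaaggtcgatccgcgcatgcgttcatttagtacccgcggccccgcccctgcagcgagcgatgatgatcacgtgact
This window also held 2 GC boxes, left in lower case. The p53 decamer was found in 7.13% of all promoters and in 3 of the 53 apoptosis promoters, those of Bax, Bmf and Trp53. The E2F motif was found in 1.86% of all promoters and in 3 of the 53, those of Bcl2l1, Casp2 and Fadd.

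The BH3-only genes, the sentinels of the pathway, gave no call in 7 tested of 8, with 3 positive and 4 negative fold changes and a median of -0.04. Bad, whose protein is held inactive by growth factor signals, stood at 118, 98.4 and 212 CPM in control and at 110, 115 and 233 CPM in treated eSMGs. Bbc3, which encodes PUMA and is a p53 target, stood at 20.9, 7.65 and 40.8 CPM and at 16.7, 9.95 and 44.3 CPM. In both genes replicate 3 was the highest library of each group and the groups lay over each other. Bcl2l11, which encodes BIM, went the other way by replicate, at 34.2, 24.8 and 16.3 CPM in control and 30.4, 24.9 and 17.9 CPM in treated eSMGs. Its treated and control libraries of the same number were close together. Pmaip1, which encodes NOXA, had 0, 8 and 20 counts in control and 3, 0 and 15 counts in treated eSMGs and was not tested. Bid, Bik, Bmf and Hrk overlapped between groups as well. Bmf reads are uncertain in part, as 20.7% of its windows at the 3′ end occur at more than 1 genome place.

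The initiator caspase genes were near 0 in fold change, with a median of 0.05 over 3 genes and 0 called. Casp8, the initiator of the death receptor pathway, stood at 3.85, 6.26 and 7.78 CPM in control and at 8.29, 9.13 and 4.05 CPM in treated eSMGs. Treated replicates 1 and 2 were above all controls, while treated replicate 3 fell among them, and the log2 fold change was 0.27 (SE 0.57, 95% interval -1.02 to 1.55). It was 0.02 without control replicate 1 and 0.53 without AMD3100 replicate 3. Casp9, the partner of APAF1, stood at 23.6, 11 and 11.7 CPM and at 12.4, 12.4 and 23.2 CPM. One library of each group held about the same high level, and the log2 fold change was 0.05 (SE 0.46, 95% interval -0.98 to 1.09). For Casp9 it turned to -0.32 without AMD3100 replicate 3 and was 0.50 without control replicate 1. Casp2 levels matched by replicate number, at 13.7, 19.4 and 8.68 CPM in control and 13.9, 18.9 and 9.09 CPM in treated eSMGs.

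Casp6 encodes a caspase that acts after the initiators and cuts nuclear lamins. Casp6 stood at 2.54, 17.2 and 11.8 CPM and at 14.7, 17.2 and 17.9 CPM, and control replicate 1 was its lowest library by far. The groups overlapped, and Casp6 did not pass the test. The inflammatory and other caspase genes were seen in few reads. Casp4, which senses bacterial lipopolysaccharide in the cytoplasm, had 11, 0 and 2 counts in control and 4, 69 and 1 counts in treated eSMGs. Of its reads, most thus came from AMD3100 replicate 2. Casp1 had 0, 0 and 32 counts and 22, 0 and 2 counts, Casp12 was tested at up to 32 counts, and Casp14, a caspase of the epidermis, was detected in AMD3100 replicate 2 alone, with 7 counts.

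The inhibitor of apoptosis genes were all tested, with 0 of 4 called and a median log2 fold change of 0.06. Xiap, whose protein binds caspases directly, stood at 76.0, 71.5 and 77.0 CPM in control and at 67.3, 62.9 and 81.3 CPM in treated eSMGs. The treated range enclosed the control range, and the log2 fold change was -0.09 (SE 0.26, 95% interval -0.68 to 0.51). For Xiap, 25.5% of the windows at the 3′ end occur at more than 1 genome place. Birc6, which encodes a giant ubiquitin ligase, stood at 59.4, 82.7 and 48.1 CPM and at 75.4, 90.9 and 64.3 CPM, higher in the treated library of each number but with overlapping groups. Birc2 and Birc3 overlapped too. Of the death receptor proteins, Fas had 0, 0 and 21 counts in control and 0, 5 and 7 counts in treated eSMGs and was not tested. Cflar, whose product FLIP competes with caspase-8, stood at 38.0, 31.3 and 69.7 CPM and at 36.8, 52.6 and 56.2 CPM. Its treated libraries lay within the control range. The adaptor Fadd ranged from 3.78 to 14.9 CPM without separation of the groups.

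Trp53, at chr11:69580348-69591873, encodes p53, the activator of Bax, Bbc3, Pmaip1 and other genes. It stood at 36.2, 28.3 and 10.7 CPM in control and at 16.7, 25.8 and 6.88 CPM in treated eSMGs. Each treated library was below the control of its own number, and replicate 3 was the lowest in both groups. The means were 25 ± 13.0 and 16.5 ± 9.47 CPM, a log2 fold change of -0.60 (SE 0.57, 95% interval -1.91 to 0.70, adjusted p = 1.0 by edgeR). With the replicate block Trp53 was at -0.63 (SE 0.30, unadjusted p = 0.0643, adjusted p = 0.766 by edgeR) and was not called either. The log2 fold change of Trp53 was -0.25 without control replicate 1 or without AMD3100 replicate 3, -0.97 without control replicate 3 and -1.07 without AMD3100 replicate 2. Of 25 further regulators and targets of p53, 24 were tested and 0 called, with 15 positive and 9 negative fold changes and a median of 0.06. With the replicate block 1 of the 24, Plk2, was called down, beside 395 of all 13610 genes. Mdm2, a p53 target that encodes its ubiquitin ligase, stood at 36.3, 64.5 and 134 CPM in control and at 56.6, 53.2 and 146 CPM in treated eSMGs. Cdkn1a, the target that encodes the cell cycle inhibitor p21, stood at 47.2, 42.0 and 36.9 CPM and at 58.3, 31.6 and 40.8 CPM. In neither gene did the groups separate.

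Replicate 3 stood apart from the other replicates of both groups in part of these genes. It was above both other replicates in both groups in 9 of the 35 genes (25.7%), beside 27.9% of all genes tested. These were Bcl2a1b, Bak1, Bax, Bad, Bbc3, Bcl2l12, Diablo, Xiap and Cflar. Its level was below both in both groups in 8 genes (22.9%), beside 25.5% of all genes, among them Mcl1, Bcl2l11, Bcl2l13, Casp2, Birc6 and Trp53. These shares were near those of all genes. On the log2 scale, with 0.5 CPM added, replicate 3 of Bax differed from the mean of replicates 1 and 2 by 1.65 in control and 1.63 in treated eSMGs. The same difference for Trp53 was -1.55 and -1.56. Cell type markers moved with replicate 3 as well. Summed skeletal muscle markers (10 of 10 tested, none at 0 in all libraries, Myog with the most reads) stood at 318, 305 and 1748 CPM in control and at 211, 179 and 2298 CPM in treated eSMGs, and 10 of 10 were highest in replicate 3 of both groups. Summed mesenchyme markers (10 genes, none at 0 in all libraries, Col3a1 with the most reads) stood at 4556, 4501 and 2258 CPM and at 4548, 4485 and 1920 CPM. By gene, 6 of the 10 mesenchyme markers were lowest in replicate 3 of both groups and 0 were highest there, and the collagen genes Col1a1, Col1a2 and Col3a1 made up most of the sums of replicates 1 and 2. The part of these markers in the levels of the apoptosis genes was not tested.

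**Figure D4:**
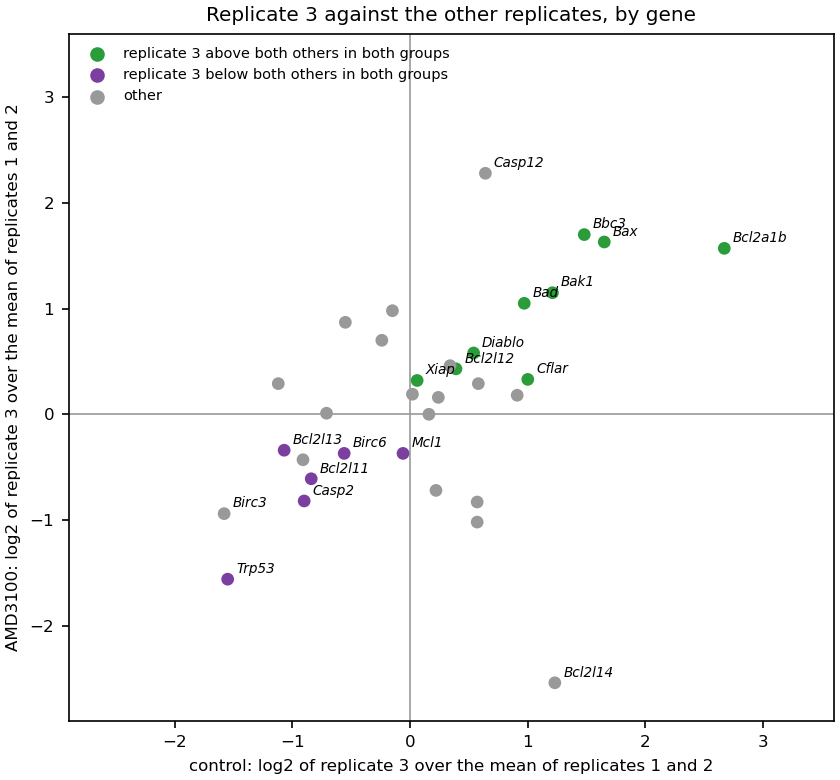
Log2 ratio of replicate 3 to the mean of replicates 1 and 2 (0.5 CPM added) in control (x axis) and AMD3100-treated eSMGs (y axis), with 1 point for each of 33 tested apoptosis genes. Green genes were highest and purple genes lowest in replicate 3 of both groups, as Bax at 1.65 and 1.63 and Trp53 at -1.55 and -1.56.

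The rest of the apoptosis pathway was read from 6 further lists with 102 measured genes, of which 87 were tested. In the fit without a block, 0 of the 87 were called, and 0 had an unadjusted p under 0.05, with 45 positive and 42 negative fold changes and a median of 0.02. The list medians were -0.47 for other death receptors, ligands and adaptors (11 tested), -0.06 for other mitochondrial factors and inhibitors (21), 0.00 for caspase substrates and DNA fragmentation (12), 0.04 for stress inducers of BH3-only genes (11) and 0.13 for necroptosis and pyroptosis (8). Birc5, which encodes survivin, stood at 95.2, 96.1 and 208 CPM in control and at 98.8, 93.9 and 139 CPM in treated eSMGs. Ddit3, which encodes the stress factor CHOP, stood at 76.6, 61.8 and 107 CPM and at 71.9, 67.5 and 113 CPM. Both overlapped between groups.

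With the replicate block, 8 of the 87 genes (9.20%) were called, 2 up and 6 down, beside 4.39% of all genes. They were named after their values were seen. Called up were Opa1, which encodes a fusion protein of the mitochondrial inner membrane, with a block log2 fold change of 0.66 (SE 0.25), and the transcription factor Foxo1 with 0.94 (SE 0.41). Opa1 stood at 23.5, 15.1 and 18 CPM in control and at 30.6, 29.4 and 28.4 CPM in treated eSMGs, without overlap. Called down were Tmbim6, a BAX inhibitor of the endoplasmic reticulum, at -0.64, the death receptor Tnfrsf21 at -0.62, Daxx at -0.60, the mitochondrial protease gene Htra2 at -0.69, Plk2 at -0.70 and the stress gene Ppp1r15a at -0.99, with SEs from 0.17 to 0.40. The adjusted p-values of the 8 by edgeR ran from 0.475 to 0.746, so none passed after adjustment. Tmbim6 stood at 83.3, 92.9 and 39.4 CPM and at 56.7, 63.1 and 22.1 CPM, lower in the treated library of each number while replicate 3 was the lowest of both groups. Without control replicate 3, 4 of 88 genes were called, beside 3.84% of all genes.

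**Figure D5:**
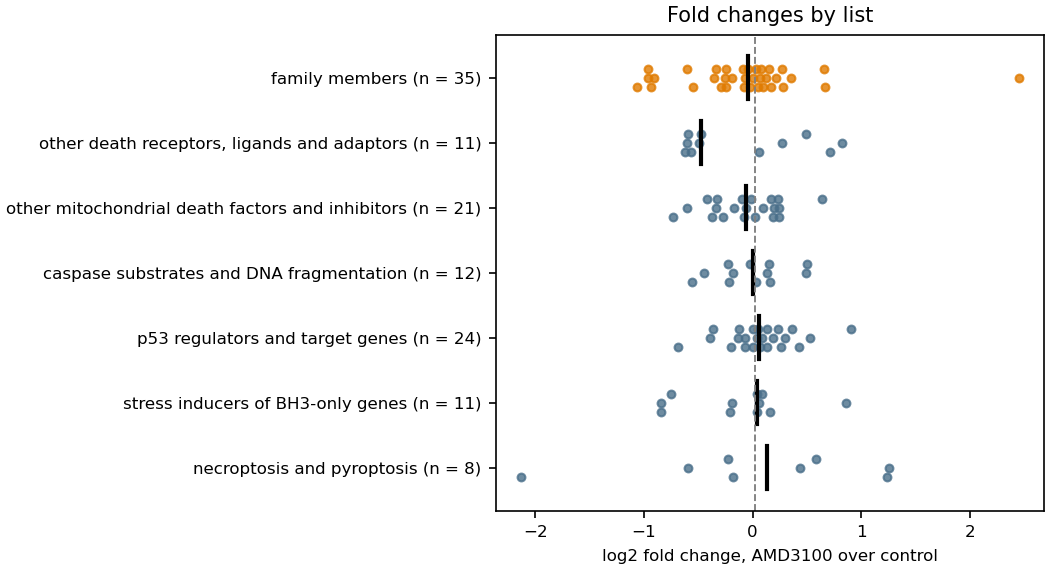
Log2 fold change (AMD3100-treated over control, x axis) of the tested genes of the BCL2 family, caspases and apoptosis inhibitors (orange) and of 6 further apoptosis lists (blue), 1 point per gene. Black bars are list medians and the dashed line is the median of all genes tested, 0.02. The points of each list lie on both sides of 0.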

How the data were processed

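The 6 libraries were made with a QuantSeq 3′ mRNA kit and read singly over 50 bp. Raw counts per gene symbol were deposited by the authors, 23282 lines per library. The submitters' processing notes name Bowtie2, edgeR and mm10. The annotation and the strand setting are not given in the sources used here. Groups and replicate numbers came from the sample titles. Of the lines, 44 repeated a symbol and 22 of these, with counts identical to an earlier line, were left out.

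All genes were fitted with edgeR 4.0.16 in R 4.3.3 (TMM, filterByExpr, quasi-likelihood test, group as the only term, Benjamini-Hochberg adjustment), and the apoptosis genes were read from that fit. Same-numbered control and treated libraries deviated together from their group means (r = 0.185, 0.171 and 0.584 over 13610 genes, which are not independent), so the numbers, taken from the titles, were treated as pairs in the replicate block. Replicates 1 and 2 of opposite groups correlated about as well (r = 0.198 and 0.146). Library totals ran from 9051595 to 14393031 counts.

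The genes, lists, markers and alternatives were chosen with earlier results of these data known. Genes named with values were those past the test, those without overlap between groups, the one with the highest mean CPM in each role group, a fixed list of core genes, and Mdm2, Cdkn1a, Birc5 and Ddit3. Of the set, 2 genes are counted but not reported by name here. Other genes are said to be chosen after their values were seen or are given by value alone. Alternatives were DESeq2 1.42.0, upper quartile scaling, limma-voom (limma 3.58.1) after quantile normalization, the study's procedure (quantile normalization of log2(count + 1), folds of unlogged means, an equal-variance test per gene), no filter, a minimum of 10 counts in each library, the block, robust estimation, Rn45s (the ribosomal RNA precursor) left out, a fold of at least 2, replicates 1 and 2 only, and each library left out. The study names quantile normalization with edgeR but no pseudocount, so adding 1 was a choice made here and the rerun approximates its procedure. Promoters and positions came from RefSeq tables of GRCm38.p6. The windows at the 3′ end came from GENCODE vM1 on NCBIM37, the genome at hand, and served for sequence alone.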

Additional observations from a re-analysis of the deposited data

How the results depend on the processing

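Apaf1, the 1 apoptosis gene called by the study's procedure (1 of 43), by limma-voom (1 of 35) and by the replicate block (1 of 35), missed the threshold in edgeR's fit without a block, beside backgrounds of 2.34%, 2.29% and 4.39%. With replicates 1 and 2 only, 2 were called, Apaf1 at -1.33 and Bcl2l14 at 3.87, beside 4.39%. Leaving out each library in turn gave 0 to 1 calls, the 1 without AMD3100 replicate 3, and a median log2 fold change of -0.23 (without AMD3100 replicate 3) to 0.04 (without control replicate 3), with -0.14 without control replicate 2. Over 16 alternatives the log2 fold change of Apaf1 ran from -1.33 to -0.77 (p from 0.0368 to 0.171). Of the other pathway genes, 0 of 87 without a block became 8 of 87 with the replicate block (beside 4.39% of all genes), 6 of 88 with replicates 1 and 2 only (4.39%), 1 of 99 by DESeq2 (Traf1, 2.62%) and 1 of 99 by the study's procedure (Opa1, 2.34%). With a library left out there were 0 to 4, the 4 of 88 without control replicate 3 (3.84%) and 2 of 88 without AMD3100 replicate 3 (3.16%). The block changed no call among the apoptosis genes other than that of Apaf1. Signs turned in genes with small fold changes. Bcl2l1 was -0.05 by limma-voom, -0.00 with the replicate block and -0.38 with replicates 1 and 2 only, where Casp9 was -0.48. With a library left out, Bcl2l1 ran from -0.34 to 0.33, Casp9 from -0.32 to 0.50 and Bax from -0.45 to 1.17. All 3 turned sign without AMD3100 replicate 3, Bcl2l1 and Casp9 also without control replicate 2, and Casp9 also without control replicate 3. Without a change of sign, Trp53 ran from -1.07 to -0.25, Casp8 from 0.02 to 0.53, Bcl2 from -0.43 to -0.09, Mcl1 from -0.37 to -0.15 and Xiap from -0.21 to -0.00, and Casp8 was 0.77 with replicates 1 and 2 only. The causes were not tested. Of 191 values of 12 genes over these alternatives, 175 were on the same side of 0 and of the threshold as in the report. Depth limits what can be seen in the 12 of the 45 genes that had at least 1 library at 0 counts.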

Other observations

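Summed levels of cell type markers differed between libraries. Epithelial markers, led in reads by Krt15, summed to 2236, 2243 and 1492 CPM in control and to 2689, 2343 and 3473 CPM in AMD3100-treated eSMGs, and Krt15 alone gave 2472 of the 3473 CPM in treated replicate 3. By gene, 6 of the 10 epithelial markers were lowest in replicate 3 of both groups and 0 were highest there, among them Krt5 at 99.1, 99.4 and 18.5 CPM in control and 107, 86.7 and 28.1 CPM in treated eSMGs. Markers of red blood cells, led by Hba-a1, ranged from 7004 to 19386 CPM, and the highest value was that of control replicate 2. Neutrophil markers, led by S100a9, summed to 13.6, 29.4 and 24.2 CPM and to 44.4, 33.5 and 10.9 CPM, with Elane at 0 in all libraries. Endothelial markers, led by Kdr, summed to 51.4, 31.0 and 50.7 CPM and to 29.0, 58.7 and 25.4 CPM. Neural and glial markers, led by Tubb3, ranged from 661 to 966 CPM. In each of these lists, and in those of mesenchyme, macrophages and skeletal muscle, 0 genes were called or had an unadjusted p under 0.05 by edgeR in the fit without a block. With the replicate block, 8 of the 72 markers tested had an unadjusted p under 0.05, a count for which no share over all genes is given. Of the 72, 4 were called, beside 4.39% of all genes. The 4 were Krt15 at a log2 fold change of 0.62 (SE 0.23), Twist1 at -0.97 (SE 0.34), Myog at -1.16 (SE 0.31) and Myod1 at -2.05 (SE 0.81), named after their values were seen. Their adjusted p-values ran from 0.468 to 0.722. Myod1 had 0 counts in AMD3100 replicate 2. Other members of the same lists went either way with the block, so the 4 do not stand for their lists. Among muscle markers Myh8 was at 0.60 and Actc1 at -0.26. Of the mesenchyme markers Col1a1 was at 0.10 and Vim at -0.29, and of the epithelial ones Krt14 at 0.40 and Sox10 at -0.14.

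At the 3′ ends, where these libraries were read, other genes overlapped the last 1000 bases of Bak1 (Ggnbp1), Bcl2l1 (Cox4i2), Casp9 (Cela2a) and Diablo (B3gnt4) in the GRCm38.p6 annotation. No such gene overlapped the last 1000 bases of Apaf1, Cycs, Bax or Trp53. For Trp53, 5.58% of the 50-base windows at the 3′ end occurred at more than 1 genome place.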
